A study of Mus musculus with 6 samples.

Results

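The genes described here encode mitochondrial ribosomal proteins (mitoribosomal proteins), measured by RNA-seq in megakaryocytes (MKs), the platelet-forming cells of the bone marrow. They were selected by symbol alone, as every gene whose symbol is Mrpl or Mrps followed by a number and at most 1 letter, which gave 78 of the 16579 genes in the expression table. All 78 passed the expression filter that left 12256 genes for testing. The set was proposed for description after the genotype comparison of these same libraries had been seen, so the genotype values given for it are a description, and the counts of genes past a threshold are printed beside the share of all genes past it without a test of the set. MKs were separated from bone marrow of 3-month-old mice by fluorescence-activated cell sorting. The 3 control libraries came from Becn1f/f mice, in which both copies of Becn1, a core gene of autophagy initiation, carry loxP sites. The other 3 came from Becn1f/f;Pf4-iCre mice, which carry the same floxed alleles and in addition the iCre recombinase driven by the promoter of Pf4 (platelet factor 4), a gene of the megakaryocytic lineage. The labels number the libraries 1 to 3 within each genotype and do not say whether each came from a single mouse, so the spread given below is the spread between libraries.

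Mitoribosomes translate the few proteins encoded by mitochondrial DNA, all of them core subunits of the respiratory chain and ATP synthase. Their ribosomal RNAs are transcribed inside the organelle, whereas every one of their proteins is encoded in the nucleus, made by cytosolic ribosomes and imported. Mitoribosomal proteins are either homologues of bacterial ribosomal proteins or additions found only in mitochondria. By the structure of the mammalian particle, 51 of the 78 products sit in the large subunit and 26 in the small subunit. Mrps18a and Mrps30 belong to the large subunit in spite of their symbols. The remaining gene, Mrps36, was named as a ribosomal protein, and its product is now known as a component of the oxoglutarate dehydrogenase complex of the citric acid cycle. Of the large subunit genes, 30 encode bacterial homologues and 21 encode mitochondria-specific proteins, and the corresponding numbers for the small subunit are 16 and 10.

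Each library held between 16467560 and 17156728 estimated counts. A single mitoribosomal protein gene had between 53 counts (Mrps6 in control library 3) and 1075 counts (Mrpl18 in control library 2), so none was at the detection limit. Becn1 had 2034, 1892 and 2103 counts in the controls and 1775, 1731 and 1849 counts in the Becn1f/f;Pf4-iCre libraries. In CPM, the counts scaled to library size with TMM factors, this was 118 ± 9.37 in the controls and 106.9 ± 2.74 in Becn1f/f;Pf4-iCre (mean ± SD of 3 libraries). The log2 fold change was -0.15 (SE 0.12, edgeR adjusted p = 0.94, exact permutation p = 0.2). The smallest p that 3 against 3 libraries allow in that two-sided permutation test is 0.1. The counts cover the whole gene and do not separate the exons between the loxP sites from the rest. Among markers of the labelled cell type, Itga2b, which encodes the CD41 antigen of MKs and platelets, had 173 and 155 CPM, whereas Pf4 had 4.87 and 2.42 CPM, Ppbp 5.54 and 5.40 CPM, and Gp9 1.55 and 1.62 CPM in control and Becn1f/f;Pf4-iCre libraries. Nfe2 (134 and 125 CPM) and Itgb3 (114 and 123 CPM), also on the MK list, had levels nearer that of Itga2b. Gp6 and Mpig6b, also MK genes, did not pass the expression filter. Neutrophil markers were abundant, with 12356 to 17480 summed CPM over 16 genes in the controls and 9586 to 12917 in the Becn1f/f;Pf4-iCre libraries, against 443 to 535 and 448 to 510 summed CPM for the 14 tested MK markers. The 10 mast cell, basophil and eosinophil markers had 4832 to 9260 summed CPM in the controls and 3811 to 5793 in Becn1f/f;Pf4-iCre. Libraries labelled as MKs thus held low levels of some MK transcripts and higher levels of others. Beside these, transcripts on the neutrophil list and on the mast cell, basophil and eosinophil list were abundant. In such bulk RNA, fewer cells of a type and less RNA per cell cannot be told apart.

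Levels of the mitoribosomal protein genes relative to each other were compared in FPKM, which is scaled for transcript length. The median gene had 25.045 FPKM in the controls, above the median of 12.3 FPKM over all tested genes, the interquartile range was 16.8 to 38.8 FPKM, and 66 of 78 had at least 10 FPKM. The highest was Mrpl33, which encodes a small homologue of bacterial L33, with 226, 232 and 147 FPKM in the controls and 191, 208 and 269 FPKM in the Becn1f/f;Pf4-iCre libraries. Its level varied more between libraries of the same genotype than between genotypes. Mrps21 (122 ± 20.2 FPKM, n = 3 controls), Mrpl18 (92.98 ± 11.2), Mrps18c (83.4 ± 15.5) and Mrpl30 (73.6 ± 9.84) followed. The lowest was Mrpl17 with 3.19 ± 0.632 FPKM, below Mrpl35 (4.06 ± 0.677), Mrpl41 (5.17 ± 1.10), Mrps25 (6.14 ± 1.16) and Mrpl11 (6.82 ± 1.24). The control means of Mrpl33 and Mrpl17 thus differed 63.3-fold in FPKM although both products occur in the same particle. Their principal annotated transcripts are 478 and 7300 bases long, and before scaling for length, in CPM, these genes lay much closer.

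The order was stable across libraries. Spearman's rho of the 78 FPKM values lay between 0.96 and 0.99 over the 15 pairs of libraries, 8 genes were among the top 10 in every library and 9 among the lowest 10 in every library. Neighbours in the order could mostly not be separated, since 75 of the 77 adjacent pairs overlapped in their control values. The exceptions were the step from Mrpl33 to Mrps21 and the step from Mrpl50 to Mrpl19. Large subunit genes had a median of 25.95 FPKM and small subunit genes a median of 24.7 FPKM. Bacterial homologues had a median of 27.9 FPKM and mitochondria-specific proteins a median of 21.7 FPKM. FPKM and CPM ordered the genes differently. Mrpl17, lowest by FPKM, had 17.3, 24.4 and 19.1 CPM in the controls and a principal annotated transcript of 7300 bases, whereas Mrpl52, with 64.7, 93.9 and 51.8 FPKM, had only 6.71, 10.9 and 5.53 CPM and a transcript of 418 bases. Median transcript length was 1302 bases over the mitoribosomal protein genes and 3008 bases over all tested genes, and median GC content of the transcripts was 50.4% and 50.2%.

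**Figure D1:**
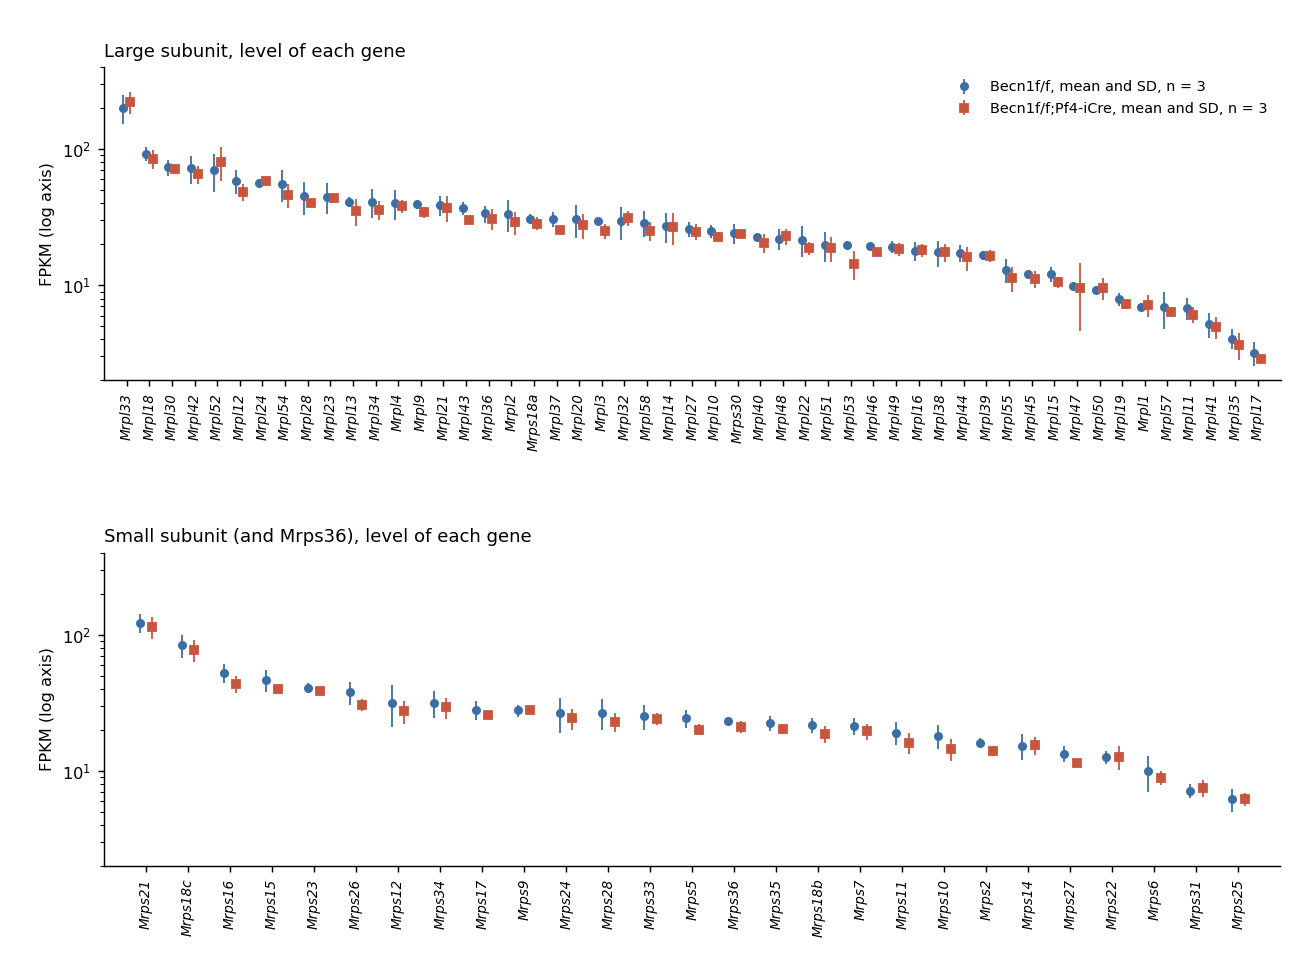
FPKM (log axis) of each of the 78 genes in Becn1f/f (circles) and Becn1f/f;Pf4-iCre (squares) libraries, mean and SD of 3 libraries each, with large subunit genes in the upper panel and small subunit genes with Mrps36 in the lower panel, ordered by the control mean. Mrpl33 and Mrps21 lead the panels, Mrpl17 is lowest, and at most genes the genotypes lie within each other's error bars.

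No mitoribosomal protein gene passed a fold change of 1.5 with an unadjusted P under 0.05, the thresholds of the study's methods, in either direction. Over all 12256 tested genes, 167 (1.36%) passed them as higher in Becn1f/f;Pf4-iCre and 115 (0.938%) as lower. By the unadjusted P alone, 0 of 78 were lower and 0 of 78 higher, where 2.39% and 3.92% of all tested genes were. In 8 of 16 alternative fits 1 gene was past that P, Mrpl53 in 4 of them and Mrpl3, Mrps5, Mrpl43 and Mrpl52 in 1 each. The smallest unadjusted P was 0.0622 (Mrpl53) and the smallest adjusted p of the edgeR fit was 0.82. The fold changes were small throughout, with 76 of 78 under 0.3 on the log2 scale, 60 within 1 SE of no change and 77 within 2 SE. The SE of a single gene lay between 0.13 and 0.30 (median 0.18), and for 62 genes both bounds at 2 SE stayed inside a fold of 1.5. For the other 16 a change of that size lay within 2 SE.

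Most of the small differences had the same sign. Of the 78 genes, 64 (82.1%) had a log2 fold change below 0, where 54.5% of all tested genes did, and the median was -0.11 (interquartile range -0.19 to -0.05) against -0.02 over all tested genes. The sign was shared by both subunits and both classes of protein. In the large subunit 42 of 51 genes were below 0 (median -0.11) and in the small subunit 21 of 26 (median -0.12). The small subunit's bacterial homologues had a median of -0.17 with 14 of 16 below 0, and its mitochondria-specific genes a median of -0.08 with 7 of 10 below 0. The control and Becn1f/f;Pf4-iCre CPM values did not overlap for 4 genes, all lower in Becn1f/f;Pf4-iCre (5.13% of the 78, against 5.18% of all tested genes), and for 0 genes in the other direction (5.42% of all tested genes). These shares of separated genes were those of the whole table or below.

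**Figure D2:**
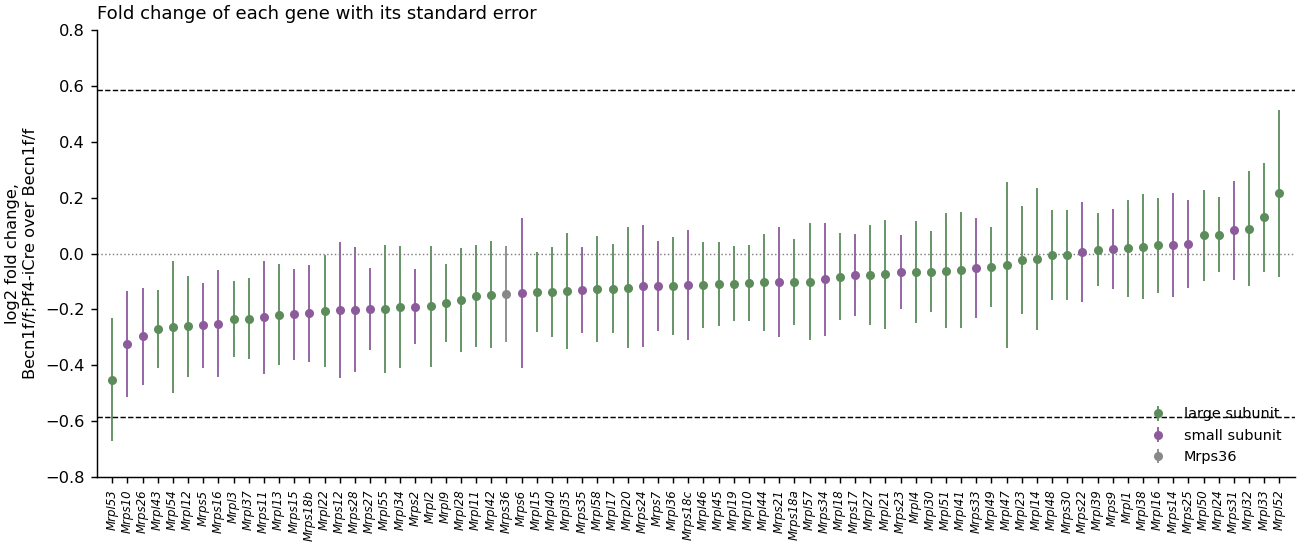
Log2 fold change (Becn1f/f;Pf4-iCre over Becn1f/f) of each of the 78 genes from the edgeR fit, with bars of 1 SE, ordered from lowest to highest and coloured by subunit. Dashed lines mark a fold of 1.5. The points run from -0.45 (Mrpl53) to 0.22 (Mrpl52), 64 of 78 lie below 0 and none reaches a dashed line.

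The 4 genes without overlap were Mrpl53, Mrpl43, Mrpl3 and Mrps2. Mrpl53, a mitochondria-specific protein of the large subunit, had 5.96, 6.499 and 5.48 CPM in the controls and 3.96, 3.68 and 5.46 CPM in the Becn1f/f;Pf4-iCre libraries. Library 3 of Becn1f/f;Pf4-iCre almost reached the lowest control, and the log2 fold change was -0.45 (SE 0.22), the lowest of the 78. All of its principal annotated transcript lies within the read-through gene Gm42688, so the counts of these genes may have been split. Mrpl43, another mitochondria-specific large subunit protein, had 31.7, 37.0 and 29.7 CPM against 26.5, 26.4 and 28.6 CPM (log2 fold change -0.27, SE 0.14). Mrpl3, homologue of a bacterial protein that reaches towards the peptidyl transferase centre, had 37.8, 37.2 and 36.3 CPM against 30.7, 28.5 and 35.4 CPM (-0.23, SE 0.14). Its controls were close together and library 3 of Becn1f/f;Pf4-iCre came near them. Mrps2, the homologue of bacterial S2, had 27.8, 26.97 and 29.97 CPM against 23.3, 24.8 and 26.2 CPM (-0.19, SE 0.13). None of these 4 genes passed the thresholds.

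The other genes with the lowest fold changes overlapped between genotypes. Mrps10, a homologue of bacterial S10, had 12.2, 16.7 and 13.7 CPM in the controls and 11.5, 9.05 and 13.4 CPM in the Becn1f/f;Pf4-iCre libraries (log2 fold change -0.33, SE 0.19). Mrps26, a mitochondria-specific small subunit protein, had 22.1, 29.8 and 20.998 CPM against 21.8, 16.9 and 20.6 CPM (-0.30, SE 0.17). Mrpl54 had 13.3, 20.1 and 12.0 CPM against 15.9, 9.29 and 12.6 CPM (-0.26, SE 0.24). In all 3 genes control library 2 was the highest value and Becn1f/f;Pf4-iCre library 2 the lowest, and the other 4 libraries were intermixed. At the other end, Mrpl52 had 6.71, 10.9 and 5.53 CPM against 12.0, 5.61 and 9.26 CPM, which gave the highest fold change of the set (0.22, SE 0.30) with complete overlap. Mrpl33 followed with 34.2, 38.1 and 22.5 CPM against 33.1, 30.3 and 40.1 CPM (0.13, SE 0.19). Mrpl32 (0.09, SE 0.21), Mrps31 (0.08, SE 0.18), Mrpl24 (0.07, SE 0.14) and Mrpl50 (0.07, SE 0.16) completed the 6 highest, none of them beyond 1 SE.

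By role in the particle, the stalk that recruits translation factors is built from Mrpl10 and Mrpl12 on a base that includes Mrpl11. Mrpl12 had 34.9, 48.4 and 33.7 CPM in the controls and 37.2, 26.4 and 34.1 CPM in the Becn1f/f;Pf4-iCre libraries (log2 fold change -0.26, SE 0.18), high in control library 2 and low in Becn1f/f;Pf4-iCre library 2. Mrpl10 (-0.11, SE 0.14) and Mrpl11 (-0.15, SE 0.18) gave smaller values. Mrpl2, whose bacterial homologue supports the peptidyl transferase centre, had 21.4, 31.2 and 18.9 CPM against 24.9, 15.7 and 22.2 CPM (-0.19, SE 0.22). Mrpl58, a codon-independent peptidyl-tRNA hydrolase built into the large subunit, had a log2 fold change of -0.13 (SE 0.19). In the small subunit Mrps12, homologue of the bacterial decoding protein S12, had 10.8, 18.3 and 10.3 CPM against 13.9, 8.81 and 11.6 CPM (-0.20, SE 0.24). Its control values spanned a wider range than the genotypes differed by. Mrps5 (-0.26, SE 0.15) and Mrps7 (-0.12, SE 0.16), homologues of S5 and S7, and Mrps28 (-0.20, SE 0.22) lay on the same side. None of these genes named by role passed the thresholds.

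Mrps18a, Mrps18b and Mrps18c are paralogues related to bacterial S18, whose products take different places in the particle, Mrps18a in the large subunit and the others in the small subunit. Mrps18c was the most abundant of them with 93.9, 90.7 and 65.6 FPKM in the controls and 76, 63.97 and 91.1 FPKM in the Becn1f/f;Pf4-iCre libraries. Mrps18a had 28.4, 33.7 and 30.2 FPKM against 27.8, 25.7 and 31.9 FPKM. Mrps18b had 19.1, 24.6 and 21.3 FPKM against 20.8, 15.7 and 19.2 FPKM. The order Mrps18c, Mrps18a, Mrps18b held in each of the 6 libraries without overlap. Their log2 fold changes were -0.11 (SE 0.20), -0.10 (SE 0.16) and -0.21 (SE 0.17). Mrps30, the other large subunit member with a small subunit symbol, had a log2 fold change of 0.00 (SE 0.16), and Mrps36 one of -0.14 (SE 0.17).

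The 78 genes shifted together mainly in control library 2 and Becn1f/f;Pf4-iCre library 2, the libraries that stood apart. Expressed as log2 CPM minus each gene's mean over the 6 libraries, the median over the 78 genes was -0.02, 0.26 and -0.09 in the controls and 0.03, -0.24 and 0.05 in the Becn1f/f;Pf4-iCre libraries. In control library 2, 76 of 78 genes lay above their own mean, and in Becn1f/f;Pf4-iCre library 2, 1 of 78 did. Control libraries 1 and 3 had 36 and 16 genes above their own mean, and Becn1f/f;Pf4-iCre libraries 1 and 3 had 43 and 50. Control library 2 held the highest value for 60 of the 78 genes (76.9%, against 17.1% of all tested genes) and Becn1f/f;Pf4-iCre library 2 the lowest for 50 (64.1%, against 19.4%). Both applied to 42 genes (53.8%, against 8.43% of all tested genes). The large and small subunits followed the same course, with medians of 0.25 and 0.28 in control library 2 and -0.23 and -0.28 in Becn1f/f;Pf4-iCre library 2. The median over all tested genes lay between -0.01 and 0.01 in each library. These shares describe libraries picked out for standing apart and carry no test.

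**Figure D3:**
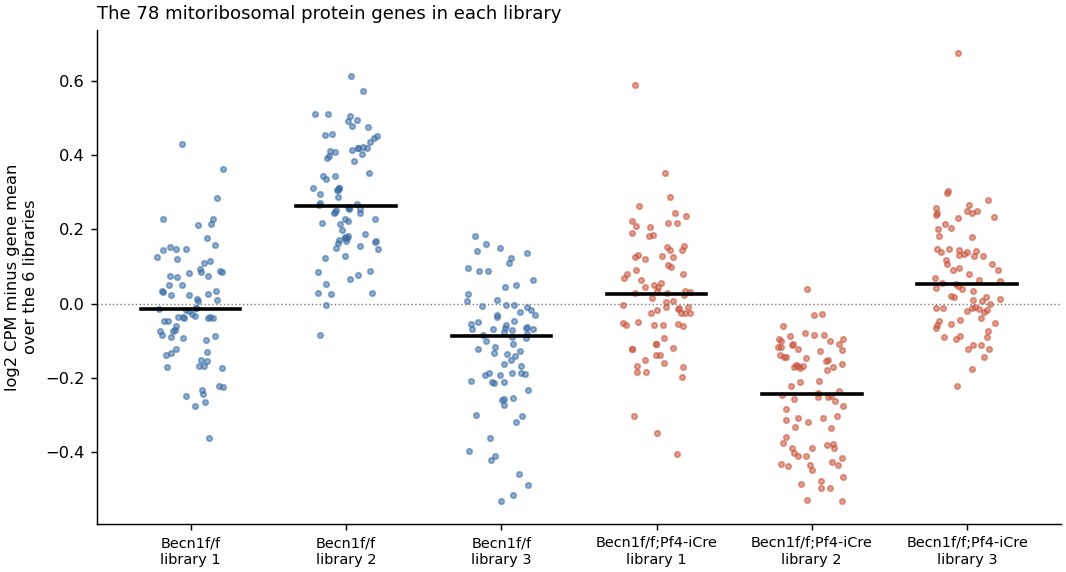
Log2 CPM minus the gene's mean over the 6 libraries (vertical axis) for each of the 78 genes (points) in each library, with the median as a black bar. Control library 2 has 76 of 78 points above 0 (median 0.26) and Becn1f/f;Pf4-iCre library 2 has 1 of 78 (median -0.24), while the other 4 libraries have medians between -0.09 and 0.05.

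Summed over the 78 genes, the controls had 1633, 1985 and 1540 CPM and the Becn1f/f;Pf4-iCre libraries 1678, 1404 and 1714 CPM. The groups overlapped, and outside library 2 the Becn1f/f;Pf4-iCre sums were above both control sums. The means were 1719 ± 235 and 1599 ± 169 CPM (SD, n = 3 each), a difference of -7.01% that is smaller than the spread between libraries of one genotype. The share of all counts taken by the set was 0.158%, 0.202% and 0.159% in the controls and 0.163%, 0.141% and 0.172% in the Becn1f/f;Pf4-iCre libraries. Without control library 2 the median log2 fold change was 0.02 and 33 of 78 genes were below 0, and without Becn1f/f;Pf4-iCre library 2 the median was -0.02 and 45 were below 0. Leaving out library 2 of both genotypes, a choice made after these values were seen, turned the direction. The median was then 0.11, 16 genes were below 0, the summed CPM was 6.90% higher in Becn1f/f;Pf4-iCre, and 1 gene passed the thresholds as higher (Mrpl52, log2 fold change 0.80, SE 0.26, edgeR adjusted p = 0.9999). The lower values of most mitoribosomal protein genes in Becn1f/f;Pf4-iCre thus rested on 1 library of each genotype.

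Other gene groups followed the same libraries to differing degrees. The 76 nuclear genes for oxidative phosphorylation subunits, the complexes that mitoribosomal products complete, had medians of 0.02, 0.40 and -0.28 in the controls and 0.16, -0.32 and 0.04 in the Becn1f/f;Pf4-iCre libraries. They were highest and lowest in the same libraries as the mitoribosomal genes, though also low in control library 3, with 68 of 76 log2 fold changes below 0 (median -0.10) and none past the thresholds. The 77 cytosolic ribosomal protein genes had medians of 0.08, 0.25 and -0.47 against 0.26, -0.23 and 0.10. For them control library 3 was the lowest, 66 of 77 fold changes were above 0 (median 0.08), and none passed. The median level was 1152 FPKM for the cytosolic ribosomal and 110.6 FPKM for the oxidative phosphorylation genes in the controls, against 25.045 FPKM for the mitoribosomal ones. The libraries also differed in how counts followed the GC content of transcripts. Slopes per 10 percentage points of GC were fitted to log2 CPM minus the gene's mean, so they are relative to the other libraries. They were -0.07, 0.13 and 0.11 in the controls and 0.15, -0.17 and -0.15 in the Becn1f/f;Pf4-iCre libraries. With trends in GC content and length taken out of each library, the mitoribosomal medians were -0.05, 0.16 and -0.01 against 0.01, -0.17 and 0.03, so both library 2 values were smaller and still the extremes.

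**Figure D4:**
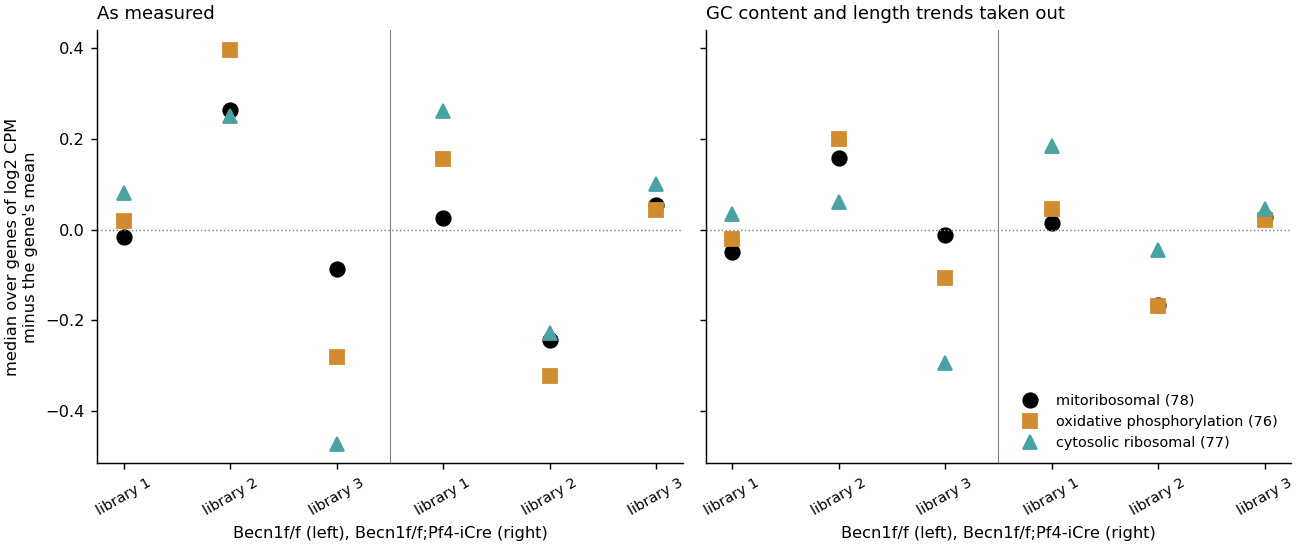
Median over genes of log2 CPM minus the gene's mean (vertical axis) in each library, for 78 mitoribosomal (circles), 76 oxidative phosphorylation (squares) and 77 cytosolic ribosomal protein genes (triangles), as measured (left) and with GC content and length trends taken out (right). Mitoribosomal medians are 0.26 and -0.24 in the library 2 pair as measured and 0.16 and -0.17 with the trends out.

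Genes that work with the mitoribosome were taken from lists, and none of their members passed the thresholds. Of the 5 mitoribosomal proteins with other symbols, all 5 had log2 fold changes below 0 (median -0.18). They are Dap3, the GTP-binding small subunit protein (-0.06, SE 0.13), Ptcd3, an RNA-binding pentatricopeptide protein of the small subunit (-0.16, SE 0.17), Aurkaip1 (-0.18, SE 0.15), Chchd1 (-0.19, SE 0.19) and the large subunit protein Gadd45gip1 (-0.33, SE 0.18). Their medians by library were 0.29 in control library 2 and -0.19 in Becn1f/f;Pf4-iCre library 2, and between -0.05 and 0.02 in the others. Listed genes of assembly, translation and aminoacyl-tRNA synthesis varied less between libraries than the mitoribosomal genes, unlike the oxidative phosphorylation genes above. The 28 assembly and ribosomal RNA modification factors had medians from -0.09 to 0.13. The 13 tested translation factors ran from -0.14 to 0.15, and the 20 enzymes of mitochondrial aminoacyl-tRNA synthesis from -0.12 to 0.17. Both the translation factors and these enzymes were highest in control library 3 and lowest in control library 1. For the assembly factors 17 of 28 fold changes were below 0 (median -0.08), for the translation factors 9 of 13 (-0.03), for the aminoacyl-tRNA synthesis enzymes 17 of 20 (-0.10), and for 17 genes of mitochondrial DNA transcription and RNA processing 13 (-0.06). Transcripts encoded by mitochondrial DNA were not analysed here.

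Nuclear regulators of mitochondrial genes showed no common direction, with 4 of 9 tested genes below 0 and a median of 0.02. Gabpa, the DNA-binding subunit of the factor also called NRF2, had 109.7, 89.0 and 81.6 CPM in the controls and 87.5, 129.5 and 117.6 CPM in the Becn1f/f;Pf4-iCre libraries (log2 fold change 0.26, SE 0.17). Its partners Gabpb1 (0.08, SE 0.14) and Gabpb2 (0.19, SE 0.13) were near it. Nrf1, a factor for many respiratory genes, had 66.5, 68.0 and 68.4 CPM against 70.9, 67.4 and 67.1 CPM (0.02, SE 0.12) and hardly varied. Yy1 (-0.05, SE 0.15), Myc (0.13, SE 0.16), Esrra (-0.20, SE 0.16), Pprc1 (-0.24, SE 0.17) and Ppargc1b (-0.07, SE 0.20) did not pass either.

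Short sequences bound by 3 of these factors were counted in the promoter windows of RefSeq on GRCm38.p6, each 300 bases long with 250 bases before and 50 after the annotated start. Windows were found for 69 of the 78 genes, 75 in all. On either strand, CCGGAAG, the core bound by GABPA, was present in 34.7% of these windows, against 17.4% of the windows of tested genes and 8.86% of all 32851 windows. GCATGCGC, a core of the NRF1 site, was present in 10.7%, 5.13% and 2.71%. ATGGCGG, a core of the YY1 site, was present in 17.3%, 7.80% and 4.05%. At least 1 of these was found in 49.3% of mitoribosomal windows, 26.97% of the windows of tested genes and 14.1% of all windows. In contrast CACGTG, the E-box bound by MYC, was found in 9.33%, 9.80% and 7.15%, CCAAT in 40.0%, 38.3% and 37.4%, and TATAAA in 6.67%, 7.23% and 13.6%. Matches of different motifs were counted separately even where they overlapped. The share of TATAAA was close to that of tested genes. The median log2 fold change was -0.11 for the 26 genes with CCGGAAG and -0.11 for the 43 without, and -0.12 for the 8 genes with GCATGCGC and -0.11 for the 61 without. For the 13 genes with ATGGCGG it was -0.19 and for the 56 without -0.10, a gap given as a description. Median control levels were 30.2 FPKM with and 22.65 FPKM without CCGGAAG.

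**Figure D5:**
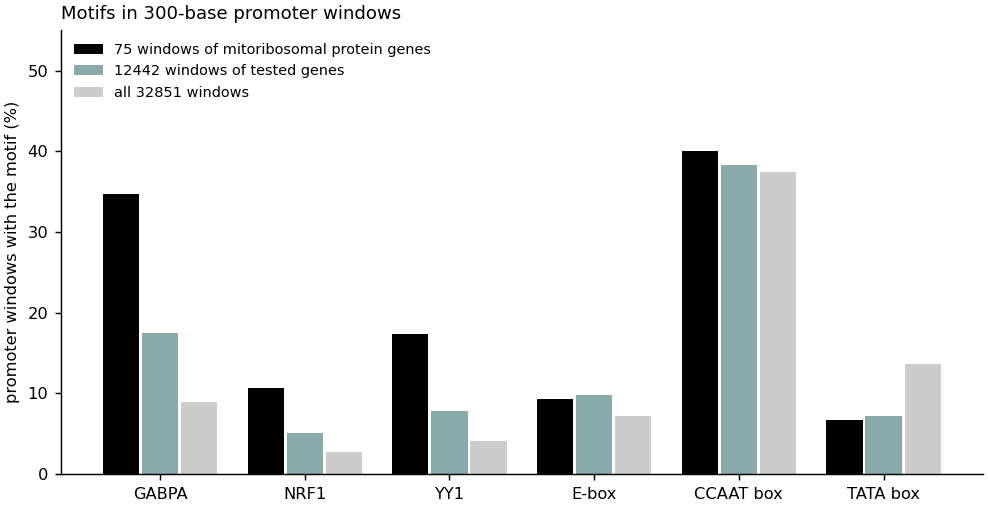
Share of promoter windows (%, vertical axis) with each motif on either strand, for 75 windows of mitoribosomal protein genes (black), 12442 windows of tested genes (teal) and all 32851 windows (grey). GABPA is found in 34.7%, 17.4% and 8.86% of them, while the E-box and CCAAT box shares differ little between mitoribosomal and tested genes.

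The bases before the start are shown for the genes with the lowest (Mrpl12, Mrpl3) and highest (Mrpl33, Mrpl52) log2 fold changes among those with a single window and at most 30 of these 250 bases in an annotated exon, so that the motifs can be read in place. The windows are chr11:120484387-120484636, chr9:105053018-105053267, chr5:31613701-31613950 and chr14:54426659-54426908 on GRCm38.p6, all on the plus strand, written 5′ to 3′ up to the base before the start. Capitals mark matches to the 6 motifs on either strand.
Mrpl12: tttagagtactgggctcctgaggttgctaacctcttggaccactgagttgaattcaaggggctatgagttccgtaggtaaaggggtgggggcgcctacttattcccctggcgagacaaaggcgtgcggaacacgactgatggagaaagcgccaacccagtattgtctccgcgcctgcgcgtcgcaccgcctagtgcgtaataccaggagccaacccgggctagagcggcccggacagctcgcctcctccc
Mrpl3: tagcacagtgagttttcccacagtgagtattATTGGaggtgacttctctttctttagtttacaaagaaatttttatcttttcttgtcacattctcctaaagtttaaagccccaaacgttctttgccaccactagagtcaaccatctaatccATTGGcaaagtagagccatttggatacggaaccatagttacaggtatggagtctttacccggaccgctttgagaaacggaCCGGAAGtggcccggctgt
Mrpl33: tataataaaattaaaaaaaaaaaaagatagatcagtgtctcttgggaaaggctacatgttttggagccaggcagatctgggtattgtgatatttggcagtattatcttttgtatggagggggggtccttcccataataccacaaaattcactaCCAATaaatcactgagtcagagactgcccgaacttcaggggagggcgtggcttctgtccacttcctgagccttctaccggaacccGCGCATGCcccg
Mrpl52: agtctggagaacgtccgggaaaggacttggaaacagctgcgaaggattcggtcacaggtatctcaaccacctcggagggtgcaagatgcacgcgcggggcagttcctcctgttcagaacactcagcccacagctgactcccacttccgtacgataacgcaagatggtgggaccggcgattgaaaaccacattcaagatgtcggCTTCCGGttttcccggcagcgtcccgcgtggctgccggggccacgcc
Mrpl3 holds the GABPA core 19 bases before its start and CCAAT, read on the opposite strand, at 99 and 219 bases. Mrpl33 holds the NRF1 core, read on the opposite strand, 12 bases and CCAAT 97 bases before its start. Its full window, which runs past the start, also holds the GABPA core, in a match that ends beyond the stretch shown. Mrpl52 holds the GABPA core on the opposite strand at 47 bases, and none of the 6 motifs is in the stretch shown for Mrpl12. Mrpl3, towards the low end of the fold changes, and Mrpl33 and Mrpl52, at the high end, thus all carried the GABPA core in their windows.

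The 78 genes lie on 17 chromosomes, with 11 on chromosome 11, 8 on chromosome 17 and 0 on the sex chromosomes (GENCODE M21, GRCm38). A protein-coding neighbour starting within 1000 bases on the opposite strand, pointing away, was found for 22 of them (28.2%), against 10.9% of tested genes with a position. Mrps11 and Mrpl46 form such a pair with each other. On chromosome 7 of GRCm38.p6 their RefSeq starts lie at 78783131 (plus strand) and 78783089 (minus strand), with 41 bases between them. Mrps11 had 13.3, 16.7 and 11.3 CPM in the controls and 14.3, 9.41 and 11.5 CPM in the Becn1f/f;Pf4-iCre libraries (log2 fold change -0.23, SE 0.20). Mrpl46 had 14.3, 14.4 and 12.4 CPM against 13.0, 11.7 and 13.3 CPM (-0.11, SE 0.15) and varied less between libraries than its partner. Mrps12 shares its start region with Sars2, which encodes the mitochondrial seryl-tRNA synthetase and had a log2 fold change of -0.22 (SE 0.18) beside -0.20 (SE 0.24) for Mrps12. Starts are those of the principal annotated transcripts. Of the 19 tested neighbours outside the set, 12 were below 0, and 1 passed the thresholds as lower, Eme2, which lies next to Mrps34 and encodes a partner of a DNA repair nuclease (-0.59, SE 0.25, edgeR adjusted p = 0.74), a call lost in 11 of 16 alternatives. Mrps34 itself had -0.09 (SE 0.20).

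Some of the counts may be shared with other genes. At least 10% of the transcript's 50-base words also occurred in transcripts of another gene for 15 of the 78 genes, whereas 39 shared none. Besides Mrpl53 the share was highest for Mrpl23, 76.4% of whose words occur in its pseudogene Mrpl23-ps1. Mrps18b (30.9%), Mrpl33 (30.3%) and Mrps18c (22.4%), whose levels are compared above, were also among the 15. Exons of another gene overlapped on the opposite strand for 20 genes, by at least 25% of the transcript for 6. Mrps18b (59.1%), Mrps25 (58.2%) and Mrpl43 (27.5%) were among them. Whether the libraries kept strand was not given in the sources used here, so reads of such overlaps cannot be assigned.

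Several lists of markers of other marrow cells, chosen with earlier results known, leaned to one side between the genotypes. Over all tested genes 54.5% were below 0, 1.36% passed the thresholds as higher and 0.938% as lower. No listed marker had an edgeR adjusted p under 0.05, the smallest being 0.057 (Mrc1) and 0.089 (Slc4a1). Of the 12 tested erythroid markers all 12 had log2 fold changes below 0 (median -0.61) and 6 passed the thresholds as lower, with 489 to 801 summed CPM in the controls and 386 to 507 in the Becn1f/f;Pf4-iCre libraries. Those were Slc4a1 (-1.18, SE 0.20), the anion exchanger of red cells, Ermap, Klf1, Rhag, Alas2 and Hba-a1. Of 16 neutrophil markers 15 were below 0 (median -0.43) and 1 passed, Mmp9 (-0.59, SE 0.22). Of 12 macrophage and monocyte markers 11 were above 0 (median 0.33) and 4 passed as higher, Mrc1 (1.26, SE 0.19), Siglec1, C1qc and Cd163, with 783 to 832 summed CPM in the controls and 843 to 1038 in the Becn1f/f;Pf4-iCre libraries. The 14 tested MK markers had a median of -0.10, and 1, Pf4, passed as lower (-1.01, SE 0.29). Medians were -0.23 for 11 B cell markers, -0.05 for 7 T and NK cell markers, -0.18 for 10 mast cell, basophil and eosinophil markers and -0.08 for 6 endothelial and stromal markers, with 1 passing as lower in the B cell list (Igll1) and 1 in the endothelial list (Kdr). In control library 2 and Becn1f/f;Pf4-iCre library 2, where the mitoribosomal genes stood apart, the erythroid medians were 0.31 and -0.06 and the neutrophil medians 0.05 and -0.30. The other controls had erythroid medians of 0.58 and 0.29 and neutrophil medians of 0.38 and 0.20, and the other Becn1f/f;Pf4-iCre libraries -0.54 and -0.28 and -0.37 and 0.04. Becn1f/f;Pf4-iCre library 2, lowest for the mitoribosomal genes, was thus the highest of its genotype for the erythroid list and lay between the others for the neutrophil list. B cell medians were 0.16, -0.19 and 0.37 against -0.28, 0.06 and -0.07. T and NK cell medians were -0.05, -0.30 and 0.30 against -0.25, 0.16 and 0.05. In both lists library 2 was the lowest control and the highest of Becn1f/f;Pf4-iCre. Macrophage and monocyte medians were -0.60, 0.03 and -0.09 against 0.28, 0.02 and 0.42. Here library 2 was the highest control and the lowest of Becn1f/f;Pf4-iCre, as for the mitoribosomal genes, but the values 0.03 and 0.02 were close. The order of the other libraries differed from that of the mitoribosomal genes. The summed CPM of this list, 832, 822 and 783 against 1038, 898 and 843, put library 2 at neither end of either genotype. Of the markers past the thresholds, Slc4a1 and Mrc1 stayed past them in all 16 alternatives. Hba-a1 lost the call in 12, Klf1, Rhag and Mmp9 in 7 each, Kdr in 5 and Siglec1 in 4. Alas2 and Igll1 lost it in 3 each, C1qc and Cd163 in 2 each, and Ermap and Pf4 in 1 each. Klf1, Kdr and Ermap were tested in only 15 of the alternatives and Rhag in 14. Without control library 3 the value of Mmp9 was -0.29. The part of these cell types in the mitoribosomal values was not tested.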

How the data were processed

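Estimated counts and FPKM of 6 libraries were used, 3 per genotype, with genotypes taken from the labels. According to the study's methods the authors removed low-quality and adapter reads, mapped the rest with HISAT and tested genes at the thresholds used here; the submitters' processing notes also name Bowtie2 and the builds GRCm39 and mm39. The deposited estimated counts (10.3% to 11.3% per library not whole) carry no normalization. For the deposited FPKM the authors divided by transcript length and sequencing depth. A further 16 columns of per-sample values were not used, 4 of them from 1 library that matches none of the samples, nor were 8 columns of group means.

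Counts were rounded, filtered with filterByExpr, given TMM factors and compared between genotypes by the quasi-likelihood test of edgeR 4.0.16 (R 4.3.3) with no covariate, and p was adjusted over 12256 genes by Benjamini-Hochberg. The SE was derived from the log2 fold change and its F statistic, as their ratio after taking the root of F. DESeq2 1.42.0 and limma 3.58.1 on log2(FPKM + 1) and log2(FPKM + 0.1) were alternatives, beside other filters and size factors, GC and length offsets (97.5% of tested genes had both, from GENCODE M21), a replicate block and leaving out each library. The fits were tested on simulated data. Totals of 16467560 to 17156728 counts limit precision less than the 3 libraries per genotype do; counting intervals would cover counting error only. Replicates of one genotype correlated at 0.98 to 0.99 (log2 CPM) and differed by more than sampling noise.

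The members, companion lists and markers were chosen with earlier results of these data known. Genes named are Becn1, the 6 highest and 6 lowest by fold change, the 5 highest and 5 lowest by control FPKM, genes with the roles described, the 5 with other symbols, regulators, and listed genes past the thresholds; Mrps2, the uncalled MK markers, the neighbours, the genes sharing sequence and the printed promoters were chosen after their values were seen. Positions come from GENCODE M21 and RefSeq on GRCm38, an earlier build than that of the deposited files, and were used for annotation only.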

Additional observations from a re-analysis of the deposited data

How the results depend on the processing

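No mitoribosomal protein gene passed the thresholds with DESeq2, with DESeq2 size factors, without a filter, with at least 10 counts in every library, with limma on FPKM, with GC content and length trends taken out or at an adjusted p under 0.05, and in these fits the median log2 fold change lay between -0.12 and -0.08 with 63 or 64 genes below 0. With the replicate block the median was -0.11, 62 genes were below 0, 0 passed, and over all genes 180 were higher and 116 lower. Deviations of libraries of the same number correlated at 0.07, -0.28 and 0.20, within the -0.30 to 0.24 of libraries with different numbers. With 3 libraries per genotype this cannot decide whether the numbers pair them. Among named genes the block lost the calls of Hba-a1, Mmp9 and Eme2.

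Leaving out 1 library at a time, the median lay between -0.18 and 0.02, the genes below 0 between 33 and 73, the difference in summed CPM between -11.6% and 0.781%, the genes passing as lower between 0 and 1 (Mrpl53 without Becn1f/f;Pf4-iCre library 3, log2 fold change -0.64, SE 0.25, edgeR adjusted p = 0.78), and over all genes those higher between 133 and 267 and those lower between 92 and 208. Control library 1 (267 higher without it) and control library 2 (208 lower without it) moved these totals most. Leaving out library 2 of both genotypes, added after seeing the data, gave a median of 0.11, 16 genes below 0, 1 passing as higher (Mrpl52) and a summed CPM 6.90% higher. Over all genes, an adjusted p under 0.05 left 5 higher and 0 lower, limma on log2(FPKM + 1) gave 91 and 38, and with a mean FPKM of at least 1 it gave 92 and 40; without a filter the numbers were 211 and 162. By the unadjusted P alone 1 member passed in 8 of the 16 alternatives (the 3 limma fits, trends taken out, 3 of the fits without 1 library, and library 2 of both left out). Over 72 named genes, 999 of 1146 values kept their sign and side of the thresholds, 80 changed sign without passing them, 2 newly passed (Mrpl53 and Mrpl52) and 65 lost a call, all of them markers of other cells, Pf4 or Eme2. Depth did not limit detection of any of the 78 genes, the lowest having 53 counts in a library.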
